A study of Mus musculus with 6 samples.

Results

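The genes described here encode potassium, calcium, sodium and chloride channels and their subunits. They were taken from the gene table by symbol: the potassium channel families (Kcn), the voltage-gated calcium channel subunits (Cacna, Cacnb, Cacng), the voltage-gated sodium channel subunits (Scn), the ryanodine and inositol trisphosphate receptors (Ryr, Itpr), Orai and Stim, the CLC family (Clcn) and the anoctamins (Ano). Kcnj8 was left out, and no measured value entered the choice. Of 22063 genes in the table, 161 qualified. Of these, 58 had 10 or more counts in every GFP library, 57 had them in every CRE library, 53 in all 6 libraries, and 14 had no count in any library.

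RNA-seq was performed on cardiac fibroblasts cultured from hearts of mice with floxed Tet3 alleles. The GFP group (genotype label Control, 3 libraries) received an adenovirus that carries GFP, and the CRE group (Tet3 knockout in the labels, 3 libraries) one that carries Cre recombinase. All cells were then treated with TGF-β, so no library shows these genes in untreated cells, and the age of the mice whose cells were sequenced is not given in the sources used here. Per the study's methods, the mice were on a C57BL/6 J background. The comparison asks how channel transcripts differ between fibroblasts with and without Cre-mediated Tet3 deletion. The labels do not say whether the 3 libraries of a group came from separate isolations of cells, so the p-values measure only the spread between these libraries. The RNA was pooled over all cells of a culture, so fewer cells of a type and less RNA per cell cannot be told apart.

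Ion channels are membrane pores that let selected ions pass along their electrochemical gradient. Potassium channels hold the resting potential negative, which sets the driving force for calcium entry in non-excitable cells such as fibroblasts. When inositol trisphosphate receptors empty the endoplasmic reticulum, STIM proteins sense the loss and open ORAI channels in the plasma membrane, a route called store-operated calcium entry. Chloride channels and CLC exchangers regulate cell volume and the acidity of endosomes and lysosomes, and the best known voltage-gated sodium and calcium channels carry the action potential in neurons and heart muscle.

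Total counts lay between 17002126 and 20343590 per library, and channel genes took 0.174% to 0.189% of them. Tet3 itself was measured at 64.9, 54.4 and 52.0 CPM (counts scaled to library size, with TMM factors) in the GFP libraries and at 34.5, 35.9 and 33.6 CPM in the CRE libraries. The groups did not overlap, and the CRE level was 60.8% of the GFP level (log2 fold change -0.72, SE 0.08, adjusted p = 5.36e-05). These counts cover the whole gene, and reads over the floxed part were not analysed here. Of the marker lists for cell types a heart culture can hold, 8 of 9 fibroblast genes and 9 of 10 endothelial genes were lower in CRE, with summed levels of 29552 to 30774 against 17323 to 18752 CPM for fibroblast genes and of 405.5 to 452.6 against 195.2 to 225.8 CPM for endothelial genes. Of 7 tested pericyte and smooth muscle genes 4 were lower and 1 was higher, and of 4 tested macrophage genes 2 were lower. Cardiomyocyte genes summed to 0.62 to 1.13 CPM and none could be tested. The part of these marker shifts in the channel results was not tested.

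Channel genes changed in both directions, at an adjusted p under 0.05 about as often as all tested genes. After removal of low counts 61 of the 161 could be tested, of which 16 were higher in CRE, 17 were lower and 28 did not pass the threshold (adjusted p under 0.05, edgeR's quasi-likelihood test, adjusted over 12862 genes). Over all tested genes 25.5% were higher and 25.7% were lower, against 26.2% and 27.9% of tested channel genes, and 51.2% of all genes changed in either direction against 54.1%. Among genes with 10 or more counts in every GFP library, 14 channel genes of 56 tested were higher and 17 were lower, beside 25% and 26.7% of all such genes. By the study's own criterion (p below 0.05 before adjustment, and a ratio above 1.5 or below 0.66), 8 were higher and 10 were lower, which is 13.1% and 16.4% of tested channel genes, beside 7.52% and 10.3% of all genes. Both shares were thus above those of all genes by that criterion, a difference that was not tested. The median log2 fold change was -0.038 for channel genes and 0.005 for all genes, and the median size of the change was 0.30 and 0.25. The libraries did not overlap between groups for 19 channel genes above and 18 below, beside 30% and 29.6% of all tested genes. Scaled by library size alone, the median of all genes moved up by 0.16 and the channel calls became 21 higher and 11 lower (65.6% of calls higher, against 48.5%), while over all genes the share of calls that were higher went from 49.8% to 72.6%.

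The counts by family rest on few genes, and differences between families were not tested. Of 24 tested potassium channel genes, 4 (16.7%) were higher and 9 (37.5%) were lower, beside 25.5% and 25.7% of all genes. Of 20 tested calcium channel, calcium release and store-operated entry genes, 7 (35%) were higher and 4 (20%) were lower. The 5 tested sodium channel genes split into 2 higher and 2 lower, and the 12 tested CLC and anoctamin genes into 3 (25%) higher and 2 (16.7%) lower. The plot of fold changes by class shows 57 of the tested genes.

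**Figure D1:**
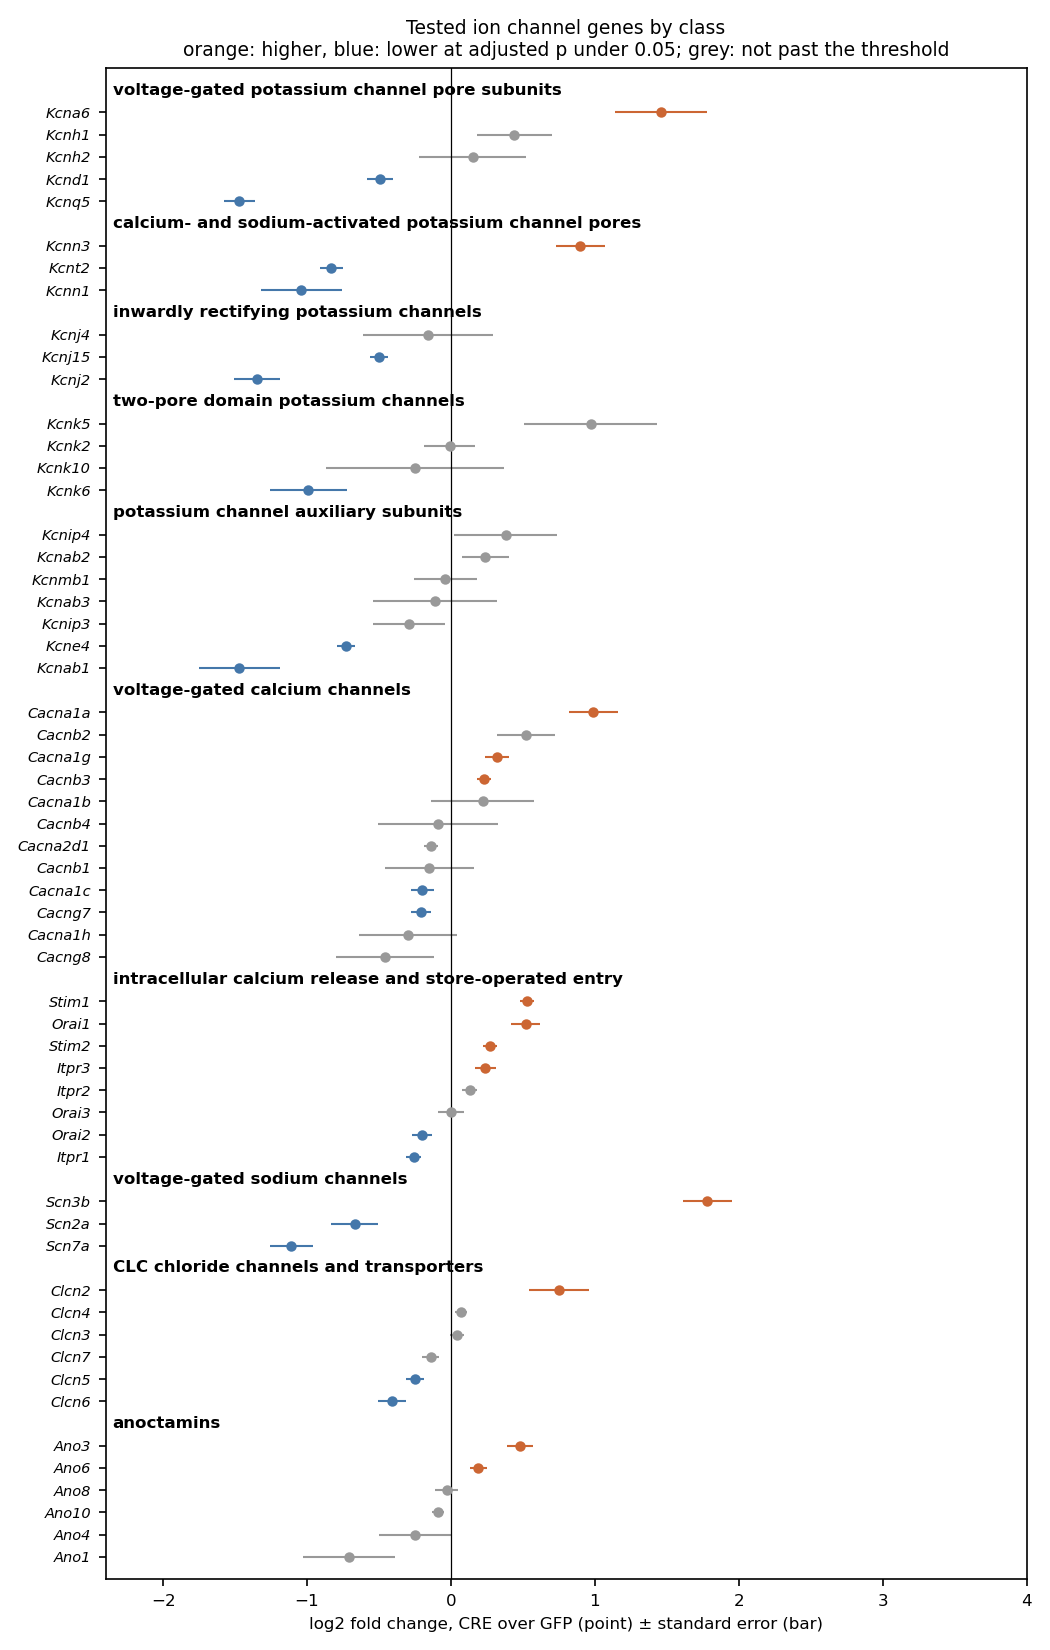
Log2 fold change of CRE over GFP (x axis) with its standard error (bars) for 57 tested channel genes, grouped by class. Orange points are 13 genes higher in CRE, blue points 17 lower and grey points 27 past no threshold, with Scn3b farthest to the right at 1.78 and Kcnq5 and Kcnab1 farthest to the left at -1.47.

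Levels between genes were compared on the deposited FPKM scale, which is per length. Averaged over the 6 libraries, 35 of the 161 genes reached 1 FPKM. The highest mean was that of Kcne4 at 60.3 FPKM, followed by Kcnj15 at 47.4 and Ano6 at 38.5 FPKM. The most expressed channel genes of these fibroblasts were thus a potassium channel subunit, an inward rectifier and a phospholipid scramblase, while Cacna1c, the L-type calcium pore of heart muscle, had a mean GFP level of 5.61 FPKM. Genes that changed also lay higher than those that did not, with a median mean level of 9.83 CPM for those higher, 18.0 CPM for those lower and 2.3 CPM for those past no threshold, and low counts leave less room to detect a change.

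**Figure D2:**
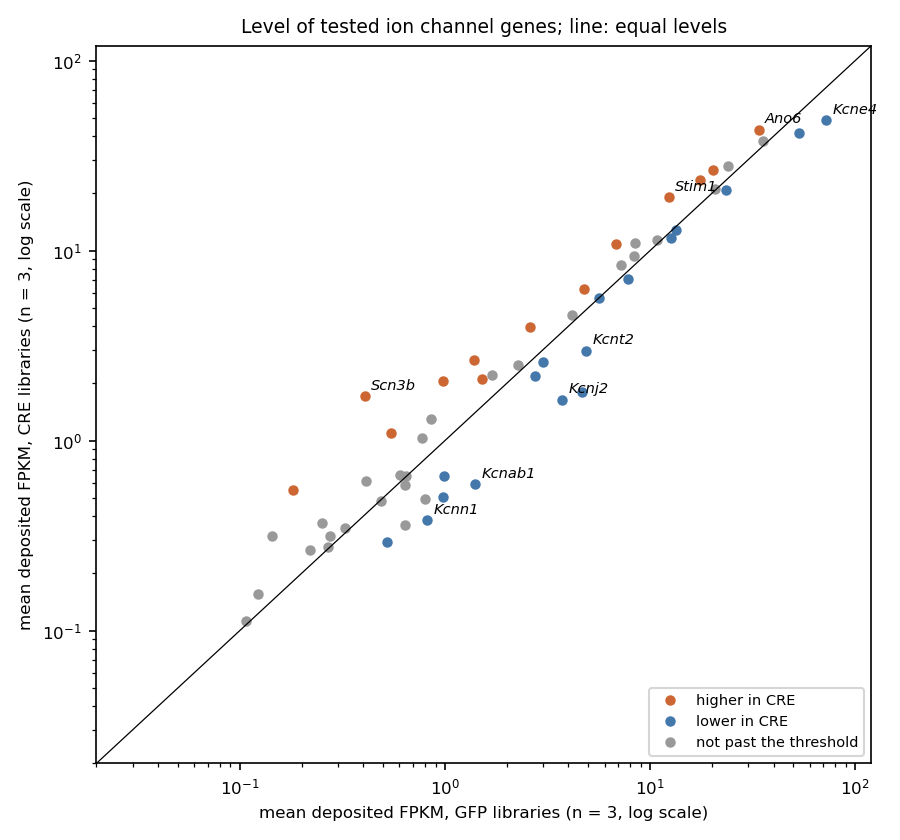
Mean deposited FPKM of 57 tested channel genes in the GFP libraries (x axis) and in the CRE libraries (y axis), both on log scales, with the line of equal levels. Kcne4 and Ano6 lie at the top right, Scn3b above the line at the low end, and Kcnj2, Kcnt2, Kcnab1 and Kcnn1 below it.

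The promoters of 4 members are shown, a pair of genes that fell (Kcnq5 and Kcnj15) and a pair that rose (Stim1 and Orai1), since they differ in CG content. TET3 oxidises methylated cytosine, which lies mostly in the dinucleotide CG. Each line holds the 250 bases before the start site, 5′ to 3′ on the strand of the gene, from RefSeq on GRCm38.p6, with every CG in capitals. They lie at chr1:21961943-21962192 on the minus strand for Kcnq5, and on the plus strand at chr16:95257308-95257557 for Kcnj15, chr7:102267569-102267818 for Stim1 and chr5:123014824-123015073 for Orai1. The 4 were chosen after their values were seen, and the contrast between the pairs does not stand for all members. In the longer windows described below, CG ranged from 7 (Cacnb3) to 39 in genes that rose, with a median of 21. In genes that fell it ranged from 2 to 26 (Clcn6), with a median of 12.5. Whether CG content differs with the direction of change was not tested.
Kcnq5: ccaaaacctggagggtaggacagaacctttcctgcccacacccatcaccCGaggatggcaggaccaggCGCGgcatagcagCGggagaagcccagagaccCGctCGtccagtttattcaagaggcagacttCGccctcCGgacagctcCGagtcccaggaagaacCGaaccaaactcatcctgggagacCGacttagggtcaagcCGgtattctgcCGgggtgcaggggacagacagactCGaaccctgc
Kcnj15: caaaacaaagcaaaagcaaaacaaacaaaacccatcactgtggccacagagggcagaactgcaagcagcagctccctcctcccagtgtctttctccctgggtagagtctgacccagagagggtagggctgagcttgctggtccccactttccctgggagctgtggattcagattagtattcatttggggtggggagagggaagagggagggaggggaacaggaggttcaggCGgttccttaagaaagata
Stim1: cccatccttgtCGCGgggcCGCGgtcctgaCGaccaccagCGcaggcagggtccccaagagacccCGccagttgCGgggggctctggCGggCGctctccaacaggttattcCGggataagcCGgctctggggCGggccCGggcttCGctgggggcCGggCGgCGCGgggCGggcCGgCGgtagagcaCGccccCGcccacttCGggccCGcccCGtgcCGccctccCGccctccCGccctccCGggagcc
Orai1: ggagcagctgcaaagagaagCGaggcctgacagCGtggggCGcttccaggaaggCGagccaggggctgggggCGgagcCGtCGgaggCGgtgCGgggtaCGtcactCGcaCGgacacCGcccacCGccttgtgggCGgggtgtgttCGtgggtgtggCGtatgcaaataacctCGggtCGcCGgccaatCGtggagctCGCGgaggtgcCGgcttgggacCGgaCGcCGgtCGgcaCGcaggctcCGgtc
Kcnq5 held 14 CG, Kcnj15 only 1, Stim1 31 and Orai1 30.

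A window of 300 bases around a RefSeq start, 250 before and 50 after, could be matched for 122 of the 161 genes. The window nearest the GENCODE gene start was used, with no limit on distance. For some genes it lay far away, as for Kcnip4 (239248 bases) and Cacna1e (158581 bases), and may not be the main promoter. The windows of the 122 genes held a median of 11.5 CG, against 11 over the windows of 20590 genes. By outcome the medians were 21 CG for 10 genes that were higher, 12.5 CG for 14 that were lower and 24.5 CG for 24 past no threshold. Genes that changed and genes that did not thus overlapped widely in CG content, with ranges of 7 to 39, 2 to 26 and 1 to 42. The letters TATAAA stood on either strand in 4.1% of channel promoters and 13.2% of all promoters, TGAGTCA in 1.64% and 4.77%, and a CArG box in 0 and 1.5%, counts that describe these windows only.

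Among pore subunits of voltage-gated potassium channels, which open on depolarisation and repolarise the cell, 40 genes were listed and 7 could be tested. Kcnq5, a subunit of slow, muscarine-sensitive potassium currents, stood at 22.3, 29.4 and 27.5 CPM in GFP and at 9.4, 8.86 and 10.3 CPM in CRE. All CRE libraries lay far below all GFP libraries (log2 fold change -1.47, SE 0.11, adjusted p = 4.9e-06). Kcnd1, a fast-inactivating A-type channel, was at 14.8, 16.8 and 14.4 CPM in GFP and at 10.3, 11.2 and 11.1 CPM in CRE. It fell by 0.49 on the log2 scale without overlap of the groups (SE 0.09, adjusted p = 0.00154). Kcnh1 and Kcnh2, of the ether-a-go-go family, did not pass the threshold, at log2 fold changes of 0.44 (SE 0.26) and 0.15 (SE 0.37), and both were named after their values were seen.

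Of the voltage-gated pore genes, 3 rose. Kcna6, a Shaker-type subunit, had 14, 28 and 15 counts in the GFP libraries and 50, 71 and 44 counts in the CRE libraries. The groups did not overlap, though the counts were low in GFP (log2 fold change 1.46, SE 0.32, adjusted p = 0.00328). Of its exon bases, 39.6% overlap Gm26673 on the other strand, so that reads of this partner cannot be told apart where counting ignored strand.

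Channels opened by intracellular calcium or sodium link potassium flow to those ions, and 3 of 8 such pore genes could be tested. Kcnt2, a sodium-activated channel, was at 25.2, 24.4 and 26.2 CPM in GFP and at 14.1, 13.4 and 15.3 CPM in CRE. The replicates of each group lay close together and the groups far apart (log2 fold change -0.83, SE 0.08, adjusted p = 1.54e-05). The small-conductance calcium-activated channels went opposite ways. Kcnn3 rose from 2.55, 3.27 and 3.17 CPM to 6.45, 5.59 and 4.86 CPM (log2 fold change 0.90, SE 0.17, adjusted p = 0.00136). Kcnn1 fell from 1.99, 1.35 and 2.23 CPM to 0.86, 0.941 and 0.898 CPM (log2 fold change -1.04, SE 0.28, adjusted p = 0.01), a call that was lost without GFP replicate 3 (-0.88, adjusted p = 0.0522). Kcnma1, the large-conductance calcium-activated channel, had 20, 26 and 11 counts in GFP and 3, 8 and 9 counts in CRE, too few to be tested, and is named after its values were seen.

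Inward rectifiers pass potassium best near the resting potential and help to set it, and 2 of the 3 that could be tested fell. Kcnj15, the second most expressed channel gene, was at 223.9, 216.5 and 204.1 CPM in GFP and at 161.9, 142.9 and 152.0 CPM in CRE. The groups were clearly apart, with a log2 fold change of -0.50 (SE 0.06, adjusted p = 5.41e-05). Kcnj2, the strong inward rectifier of heart and vessel, was at 17.7, 26.5 and 20.3 CPM in GFP and at 6.98, 9.19 and 9.19 CPM in CRE. The spread within GFP was wide, yet its lowest library was above every CRE library (log2 fold change -1.35, SE 0.16, adjusted p = 6.77e-05). Kcnj4 was the tested gene that did not pass (log2 fold change -0.16, SE 0.45), and 11 of the 14 inward rectifier genes were too low to test. Of the endothelial markers 9 of 10 fell in the same libraries, and the pericyte and smooth muscle list, with 4 of 7 tested genes lower and Cspg4 higher by 1.03, summed to 1016 to 1157 CPM in GFP and to 862.0 to 881.3 CPM in CRE, and their part in the Kcnj2 and Kcnj15 results was not tested.

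Of 4 tested tandem pore domain channels, which carry background potassium leak, 1 fell. Kcnk6 was at 2.49, 1.97 and 2.29 CPM in GFP and at 1.13, 0.775 and 1.48 CPM in CRE (log2 fold change -0.99, SE 0.27, adjusted p = 0.0117), with no overlap. Kcnk2, a leak channel opened by membrane stretch and the most expressed of the class, was at 9.64, 5.86 and 6.23 CPM in GFP and at 6.5, 7.86 and 7.02 CPM in CRE. Its groups overlapped, and the log2 fold change of -0.01 (SE 0.18) changed sign with scaling and with the library left out. Auxiliary subunits alter how pore subunits open or reach the membrane, and 2 of 7 tested fell. Kcne4, a single-span subunit that inhibits KCNQ channels and the most expressed channel gene, was at 177.8, 211.2 and 198.1 CPM in GFP and at 113.5, 119.2 and 120.4 CPM in CRE. All CRE libraries were below all GFP libraries (log2 fold change -0.73, SE 0.06, adjusted p = 8.5e-06). Kcnab1, a cytoplasmic beta subunit of voltage-gated potassium channels, fell from 5.97, 4.51 and 3.79 CPM to 2.47, 1.16 and 1.48 CPM (log2 fold change -1.47, SE 0.28, adjusted p = 0.00148). Kcnab2, a second beta subunit, stayed within overlapping values (log2 fold change 0.24, SE 0.16). The potassium genes with most change are plotted per library.

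**Figure D3:**
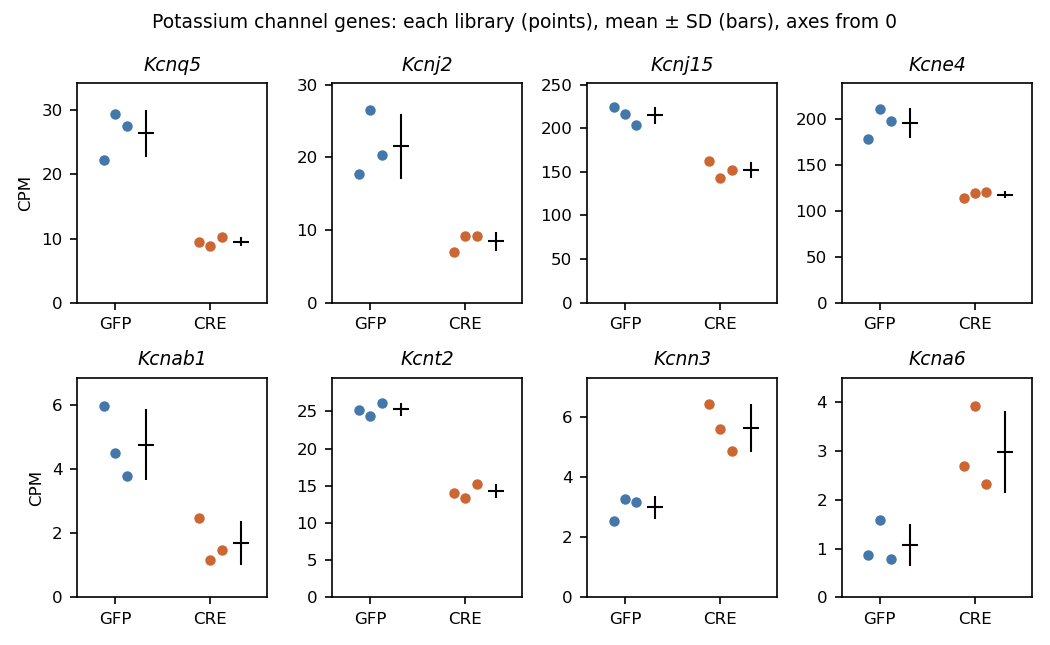
CPM in each GFP library (blue) and each CRE library (orange) for 8 potassium channel genes, with the mean ± SD of 3 libraries beside the points and each axis starting at 0. Kcnq5, Kcnj2, Kcnj15, Kcne4, Kcnab1 and Kcnt2 lie lower in CRE, and Kcnn3 and Kcna6 higher, with no overlap of the groups in any of the 8.

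Of 12 tested voltage-gated calcium channel genes, 3 rose, 2 fell and 7 did not pass. Cacna1a, the pore of P/Q-type channels at nerve terminals, was at 2.61, 2.99 and 2.23 CPM in GFP and at 5.64, 4.54 and 5.39 CPM in CRE. It rose with no overlap (log2 fold change 0.99, SE 0.17, adjusted p = 0.000827). Cacna1g, a low-voltage-activated T-type pore, rose by 0.32 on the log2 scale (SE 0.08, adjusted p = 0.0088), from 12.9, 13.1 and 12.6 CPM to 15, 17 and 16.3 CPM. Cacnb3, a cytoplasmic beta subunit and the most expressed gene of the class, rose by 0.23 (SE 0.05, adjusted p = 0.00553), from 57.9, 51.4 and 53.2 CPM to 63.6, 64.5 and 62.4 CPM. The 2 that fell rest on small differences. Cacna1c, the L-type pore of heart and smooth muscle, was at 50.1, 60.3 and 51.5 CPM in GFP and at 43.5, 48.0 and 49.1 CPM in CRE (log2 fold change -0.20, SE 0.08, adjusted p = 0.0471). Its call was kept under 5 of 16 alternatives and its sign turned on the deposited FPKM. Cacng7, a transmembrane protein that accompanies AMPA-type glutamate receptors, was at 31.0, 32.5 and 30.5 CPM in GFP and at 25.3, 28.8 and 27.0 CPM in CRE (log2 fold change -0.21, SE 0.07, adjusted p = 0.0215), a call kept under 9 of 16 alternatives.

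Of 8 tested genes of store-operated entry and calcium release, 4 rose, 2 fell and 2 did not pass. Stim1, the calcium sensor of the endoplasmic reticulum, was at 44.5, 48.7 and 47.6 CPM in GFP and at 66.9, 70.1 and 65.9 CPM in CRE. Its groups were separated widely for their spread (log2 fold change 0.53, SE 0.05, adjusted p = 2.48e-05). Orai1, the plasma membrane pore that STIM proteins open, was at 12.2, 11 and 9.98 CPM in GFP and at 14.8, 16.0 and 16.6 CPM in CRE. It rose to a like extent (log2 fold change 0.52, SE 0.10, adjusted p = 0.00165). Stim2, the more sensitive of the sensors, rose from 78.9, 78.6 and 74.0 CPM to 88.7, 96.7 and 94.0 CPM (log2 fold change 0.27, SE 0.05, adjusted p = 0.00127). The rise of these 3 held under every alternative fit.

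The other pore genes of the route moved less. Orai2 was at 28.2, 29.7 and 25.7 CPM in GFP and at 24.0, 23.6 and 24.9 CPM in CRE (log2 fold change -0.20, SE 0.07, adjusted p = 0.0332), a call kept under 7 of 16 alternatives. Orai3 had the same mean of 17.7 CPM in both groups. Of the inositol trisphosphate receptors, Itpr1 was at 111.5, 109.8 and 114.0 CPM in GFP and at 95.6, 96.4 and 89.0 CPM in CRE. It fell without overlap (log2 fold change -0.26, SE 0.05, adjusted p = 0.0012), but the call was lost with library size alone (-0.09, adjusted p = 0.113) and on both FPKM scales (-0.16 and -0.17, adjusted p = 0.118 and 0.117). Itpr3 rose from 48.2, 43.4 and 44.2 CPM to 57.5, 53.8 and 48.8 CPM (log2 fold change 0.24, SE 0.07, adjusted p = 0.0159), a call lost without GFP replicate 2, GFP replicate 3 or CRE replicate 1 (adjusted p 0.0535 to 0.0627). Itpr2 lay between them (log2 fold change 0.13, SE 0.05, adjusted p = 0.0618) and did not pass, though it did under 6 of 16 alternatives, library size alone and both FPKM scales among them. The ryanodine receptors, the release channels of muscle, were nearly silent, with 12 counts or fewer in every library.

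**Figure D4:**
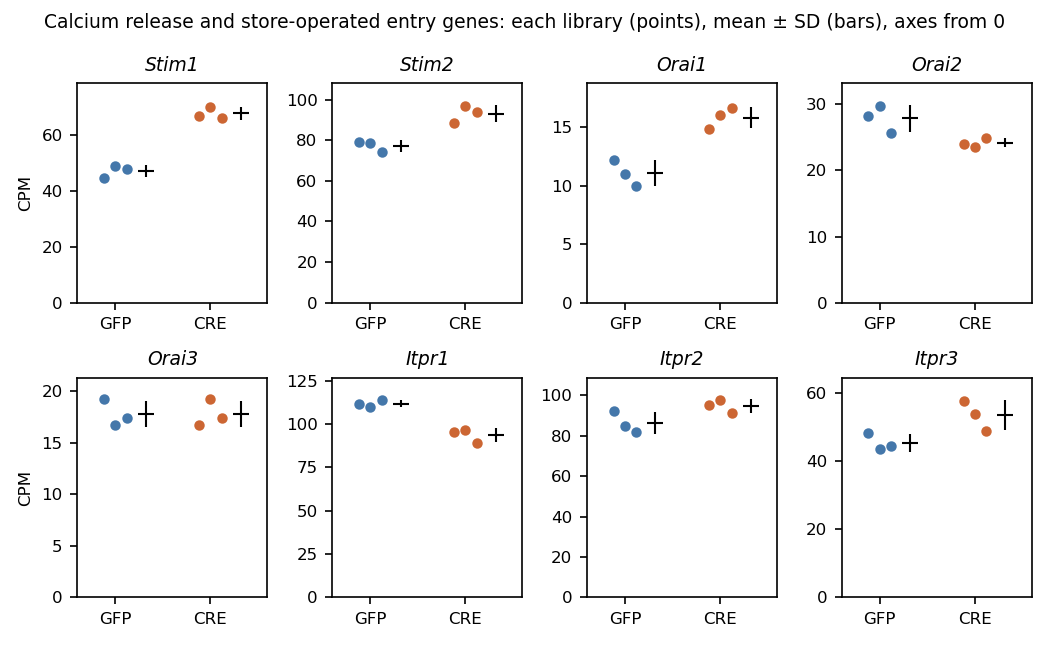
CPM in each GFP library (blue) and each CRE library (orange) for the STIM, ORAI and inositol trisphosphate receptor genes, with the mean ± SD of 3 libraries beside the points and each axis starting at 0. Stim1 rises from a mean of 46.9 to 67.6 CPM and Orai1 from 11.1 to 15.8 CPM, while Orai3 is at 17.7 CPM in both groups.

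Of 5 tested sodium channel genes, 2 rose, 2 fell and 1 did not pass. Scn3b, an auxiliary beta subunit, rose from 26, 37 and 31 counts to 113, 121 and 106 counts (log2 fold change 1.78, SE 0.17, adjusted p = 1.9e-05), with the groups far apart. Scn7a, an atypical channel that senses extracellular sodium, fell from 106, 156 and 142 counts to 64, 59 and 72 counts (log2 fold change -1.11, SE 0.15, adjusted p = 0.000166). Scn2a, a neuronal pore, fell from 117, 125 and 128 counts to 70, 71 and 104 counts (log2 fold change -0.67, SE 0.16, adjusted p = 0.00579), with CRE replicate 3 nearest to GFP.

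Scn3b and Cacna1a, both among the rising genes, are well known from neurons. The neuronal pore gene Scn2a and Cacng7, the partner of AMPA-type receptors, fell, so such genes went both ways. Neuronal markers were read in the same libraries. Of 8 neuronal markers 2 could be tested, of which Tubb3 rose by 0.56 on the log2 scale. Nefm had 7, 7 and 10 counts in GFP and 79, 82 and 61 in CRE, and it entered the test only through its CRE level. The list summed to 30.8 to 32.3 CPM in GFP and to 44.5 to 55.2 CPM in CRE, most of it from Tubb3. Snap25 was at 0 in every library, Rbfox3 had 1 count in a single library, and Elavl4 had at most 1 count in any. Nefl, also too low to test, had 1, 0 and 0 counts in GFP and 8, 7 and 3 in CRE. The groups overlapped for the other untested markers, Syt1 and Stmn2. The part of these markers in the channel results was not tested.

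Of the CLC family, 1 of 6 tested genes rose and 2 fell. Clcn2, a chloride channel of the plasma membrane, was at 5.47, 4.4 and 4.1 CPM in GFP and at 6.23, 10.4 and 6.76 CPM in CRE. CRE replicate 2 stood above the others, and the log2 fold change was 0.75 (SE 0.21, adjusted p = 0.0122), or 0.66 without GFP replicate 3 (adjusted p = 0.0529). Clcn5 and Clcn6, chloride and proton exchangers of endosomes, fell by 0.25 (SE 0.06, adjusted p = 0.00459) and by 0.41 (SE 0.10, adjusted p = 0.00754) on the log2 scale, from means of 73.7 and 14.0 CPM to 62.1 and 10.5 CPM. Neither passed with library size alone (adjusted p 0.229 and 0.0643) or on the deposited FPKM. Clcn4 and Clcn7, the most expressed of the family, did not pass (log2 fold changes 0.07, SE 0.04, and -0.14, SE 0.06), though Clcn4 did with library size alone (0.23, adjusted p = 0.000963).

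Anoctamins act as calcium-activated chloride channels or as scramblases that move phospholipids between membrane leaflets, and 2 of 6 tested rose. Ano3 was at 15.9, 18.4 and 19.3 CPM in GFP and at 26.8, 24.5 and 23.7 CPM in CRE. It rose without overlap, by 0.48 on the log2 scale (SE 0.09, adjusted p = 0.00123). Ano6, the scramblase that exposes phosphatidylserine, was at 171.7, 169.1 and 154.2 CPM in GFP and at 175.8, 188.5 and 198.8 CPM in CRE (log2 fold change 0.19, SE 0.06, adjusted p = 0.0231). Its groups were separated narrowly, and its call was lost without GFP replicate 3, CRE replicate 2 or CRE replicate 3 (adjusted p 0.0552 to 0.0994). Ano10 did not pass (log2 fold change -0.09, SE 0.04).

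Of the 100 genes that could not be tested, 86 had a count in some library, with a median total of 8.5 counts over the 6 libraries against 7 for all 4345 such genes. Without a test, all CRE libraries lay above all GFP libraries for 20 of them (23.3%) and below for 7 (8.14%), beside 9.87% and 5.91% of all such genes. The clearest was Scn4a, the sodium pore of skeletal muscle, with 0 counts in every GFP library and 21, 14 and 9 counts in CRE. Set against the 3 counts that 0 counts over the group allow, its mean CRE level was 14-fold higher. That ratio leaves out the counting error and the spread of the CRE libraries, so it is not a lower bound. Kcnt1, a sodium-activated potassium channel, had 0, 1 and 0 counts in GFP and 8, 12 and 9 in CRE, and Kcnk1, a leak channel, had 1, 1 and 0 and then 9, 15 and 13. Kcna3, a voltage-gated channel known from lymphocytes, went the other way, with 7, 13 and 8 counts against 2, 4 and 5. The 4 were picked with their values in view.

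Genes that work beside these channels were read from 6 lists. Of 13 tested regulators of calcium release and store-operated entry, 2 rose and 5 fell. Jph2, which ties the plasma membrane to the endoplasmic reticulum, was at 71.0, 62.2 and 65.5 CPM in GFP and at 43.8, 36.7 and 42.3 CPM in CRE (log2 fold change -0.69, SE 0.07, adjusted p = 3.74e-05), and its relative Jph1 rose (0.91, SE 0.24, adjusted p = 0.00854). Fkbp1a, a partner of release channels, fell (-0.57, SE 0.05, adjusted p = 8.65e-06), and Saraf, which slows store-operated entry, rose by 0.12 (SE 0.04, adjusted p = 0.035), a call kept under 9 of 16 alternatives. Calcineurin, NFAT and CaM kinase genes counted 4 higher and 5 lower of 18 tested. Rcan1, an inhibitor of calcineurin and a target of NFAT, was at 16.6, 16.8 and 15.1 CPM in GFP and at 26.3, 28.1 and 26.6 CPM in CRE (log2 fold change 0.74, SE 0.07, adjusted p = 2.09e-05). Camkk1 rose (0.81) and Camkk2 fell (-0.66), both kinases that activate other kinases on a calcium signal, while Calm3, a calmodulin gene, and Camk2d both fell by 0.40.

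Of 7 tested calcium pumps and exchangers, 3 rose and 1 fell. The sodium-calcium exchanger gene Slc8a1 fell (log2 fold change -0.47, SE 0.07, adjusted p = 0.000386), and the plasma membrane pump gene Atp2b1 rose by 0.22 (SE 0.05, adjusted p = 0.00478). Slc8a3, a relative of Slc8a1, had 2, 8 and 12 counts in GFP and 22, 13 and 27 in CRE, and since it entered the test only through its CRE level, its call (1 of the 3 that rose, kept under 9 of 15 alternatives) is no support for a difference. Of the 7 genes of the mitochondrial calcium uniporter complex, 1 rose and 6 did not pass. Other chloride channel genes counted 4 higher and 5 lower of 17 tested. Cftr, the chloride channel mutated in cystic fibrosis, had 31, 29 and 37 counts in GFP and 5, 6 and 5 counts in CRE, with no overlap (log2 fold change -2.64, SE 0.31). It entered the test only through its GFP level, so its p-value is not given. Pacc1, the proton-activated chloride channel, rose by 1.24 (SE 0.12, adjusted p = 1.52e-05), Ostm1, the beta subunit of the lysosomal exchanger encoded by Clcn7, rose by 0.57 (SE 0.05, adjusted p = 8.19e-06), and Clic6 fell (-0.91, SE 0.26, adjusted p = 0.0146, kept under 14 of 16 alternatives and lost without GFP replicate 2 or CRE replicate 3). Among potassium channel partners 3 of 7 tested rose and 2 fell. Hcn2, a pacemaker channel, had 32, 39 and 39 counts in GFP and 114, 118 and 122 in CRE (log2 fold change 1.62, SE 0.15, adjusted p = 1.19e-05), and Amigo1, an adhesion protein that joins potassium channel complexes, rose too (0.79, SE 0.19, adjusted p = 0.00661). Abcc9, the sulfonylurea receptor subunit, fell (-1.08, SE 0.29, adjusted p = 0.00982), a call kept under 13 of 16 alternatives and lost on both FPKM scales and without GFP replicate 3.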

How the data were processed

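RNA-seq libraries of TGF-β-treated Tet3 floxed cardiac fibroblasts were compared, 3 with the GFP virus and 3 with the Cre virus, grouped by sample title. Per the study's methods, reads were trimmed with Trimmomatic, aligned to GRCm38 with HISAT2 and counted with HTSeq-count. Use of strand in counting is not given in the sources used here, and the labels and the methods name different RNA and library kits. The authors deposited unscaled counts for each gene, and FPKM values from Cufflinks. Their group means, fold changes, p-values and false discovery rates were not used.

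Counts were fitted in R 4.3.3 with edgeR 4.0.16 (TMM, filterByExpr with minimum count 10 and total 15, two-sided quasi-likelihood test, Benjamini-Hochberg over 12862 genes), after a test on simulated data. Alternatives used limma 3.58.1 and DESeq2 1.42.0. With 3 libraries against 3, an exact permutation test cannot go below p = 0.1. A count of 0 was taken to allow 3 counts. Gene positions and exon overlaps came from GENCODE M21, and promoter windows from RefSeq. Named in each class were up to 4 genes that rose and 4 that fell by size of change, and the 2 with the highest mean FPKM, and in each partner list up to 2 each way; some genes that qualified are not reported here. Kcnh1, Kcnh2, Kcnj4, Kcnma1, Orai3, Itpr2, the ryanodine receptors and the untested genes named fall outside that rule and were added with their values seen. Genes, lists and tests were chosen with earlier results of these data known. Precision is limited by 17002126 to 20343590 counts per library; the limit of 3 counts covers counting error only, while standard errors and SDs include the spread between libraries. Figures were drawn with matplotlib 3.10.9.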

Additional observations from a re-analysis of the deposited data

How the results depend on the processing

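Of the 33 channel genes past the threshold, 23 (13 higher, 10 lower) stayed past it in every one of the 16 alternative fits that tested them, and 10 lost it in at least 1, all with a log2 fold change of at most 1.04 in size. With library size alone, 11 channel genes were lower, their median log2 fold change was 0.124 and 26 partner genes were higher. On log2(FPKM + 1) and log2(FPKM + 0.1), 11 were lower and the medians were 0.054 and 0.126. Without a filter beyond 1 count, 26 channel genes were higher and the median was 0.180. At the study's threshold, 8 channel genes were higher and 10 lower, and 7 partner genes were higher and 8 lower, against 17 and 18 in the main test. Over genes with 10 or more counts in every GFP library the median was -0.090. Leaving out each library in turn moved the median between -0.084 and 0.063, so it carries no stable sign. Among genes named by rule, signs turned for Clcn7 (0.02 with library size alone and on both FPKM scales), Ano10 (0.08, 0.07 and 0.08), Cacna1c (0.01 on both FPKM scales) and Kcnk2 (0.15 with library size alone, 0.00 with upper-quartile scaling, 0.03 with limma-voom, 0.12 and 0.18 on FPKM, and from -0.15 to 0.23 as each library was left out). Signs also turned in some fits for Kcnj4 (-0.43 to 0.41), Kcnh2 (-0.18 to 0.41) and Orai3, none past the threshold in the main test. The causes were not tested. With the replicate number as a replicate block, 17 channel genes were higher and 17 lower, with a median of -0.029 and a Tet3 log2 fold change of -0.71. Deviations of same-numbered libraries from their group means correlated at 0.046, 0.18 and -0.0181. A shared isolation could leave little trace in such deviations, so they cannot settle whether equal numbers mark paired samples. Depth limits the 100 untested genes, for which a change could not be detected by the main test.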
